A study of Mus musculus with 16 samples.

Results

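Pericytes and vascular smooth muscle cells, together called mural cells, wrap the outside of brain vessels, and 10 genes that mark them were followed in CD11b+ brain cells of mice from the groups CON, MAL, and MAL-BG. They were taken by name from the count table, which has 24421 rows, and all 10 were found and passed the filter on low counts, among 14565 genes tested. The genes are Pdgfrb, Cspg4, Vtn, Kcnj8, Abcc9, Rgs5, Acta2, Tagln, Myl9, and Higd1b. On GRCm38, 9 of the gene spans are chr1:169655501-169695813 for Rgs5, chr6:142564837-142571614 for Kcnj8, chr6:142587862-142702315 for Abcc9, chr11:78499091-78502324 for Vtn, chr19:34241090-34255590 for Acta2, chr9:45929619-45936058 for Tagln, chr2:156775420-156781658 for Myl9, chr9:56865033-56899870 for Cspg4, and chr11:102835849-102838040 for Higd1b.

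Pericytes sit in the basement membrane of capillaries and depend on platelet-derived growth factor (PDGF) from the endothelium, which they sense through Pdgfrb. Smooth muscle cells ring the arterioles and contract with an actin and myosin apparatus to set blood flow, while capillary pericytes are richer in a potassium channel that opens when ATP is low. Neither cell is known for CD11b, a surface integrin of microglia and other myeloid cells that was used to select the cells here.

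All mice were weaned female C57BL/6J animals housed as separate groups, and each library came from the cells that antibody-coated magnetic beads held back after the brain was dissociated. The 4 CON libraries are from mice on standard chow, the 5 MAL libraries from mice kept for a month on an isocaloric diet low in protein and fat, and the 7 MAL-BG libraries from mice on that diet that were also gavaged with a mixture of E. coli and Bacteroidales species. Per the methods, CON and MAL mice were gavaged with PBS alone. No group here received the bacteria on standard chow. The labels name cortical tissue, whereas the methods name whole cerebra.

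Totals per library were 10312703 to 13461574 counts for CON, 10864121 to 12819982 for MAL, and 14191791 to 18705202 for MAL-BG. Microglial markers were abundant, with a summed level over 15 genes of 20131 to 35240 CPM in CON and MAL and 42819 to 59308 CPM in MAL-BG, where CPM is the count relative to the TMM-scaled library size. Replicates of every group differed by more than sampling noise (lowest chi-square per degree of freedom, 9.57), and all 16 libraries were kept. In these bulk libraries, fewer mural cells and less RNA per mural cell cannot be told apart.

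Serum response factor, which drives smooth muscle contractile genes, binds the CArG box, and the 250 bases upstream of the RefSeq start (GRCm38.p6) were searched for it on both strands, exactly and with at most 1 G or C in the core. Of the 7 members with an entry that was searched, Acta2 and Myl9 held matches and 5 did not. Tagln, Higd1b, and Pdgfrb were not searched, so whether they hold a match is not known here. The exact box is in 482 of 32841 promoter entries (1.47%) and the relaxed one in 2820 (8.59%), and the relaxed form was chosen after the exact search. The matches are shown because both genes encode contractile proteins and are described together in the comparisons that follow. A match is only a match of letters. Capitals mark the box in 30-base windows, 5′ to 3′. For Acta2 they lie on the minus strand at chr19:34255438-34255467 and chr19:34255388-34255417, with the box 84 to 75 and 34 to 25 bases before the RefSeq start, inside an exon of the GENCODE model, and for Myl9 on the plus strand at chr2:156775293-156775322 and chr2:156775355-156775384, 161 to 152 and 99 to 90 bases before the start. Only the first Myl9 box has no G or C in its core.
Acta2 distal: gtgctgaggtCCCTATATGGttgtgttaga
Acta2 proximal: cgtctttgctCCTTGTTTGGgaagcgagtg
Myl9 distal: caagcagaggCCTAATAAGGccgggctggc
Myl9 proximal: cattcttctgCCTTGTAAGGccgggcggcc

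In MAL-BG, calls among the mural genes went in both directions against MAL and only lower against CON. Rgs5 and Abcc9 fell against both CON and MAL, and Kcnj8 fell against MAL. Acta2 and Tagln rose against MAL. Pdgfrb, Vtn, Cspg4, Higd1b, and Myl9 passed the test in neither comparison. A gene was called where its adjusted p was under 0.05 and its log2 fold change was above 0.58 in size. The test was edgeR's quasi-likelihood test, with the Benjamini-Hochberg adjustment over all genes tested, and every adjusted p given is from it unless another tool is named. Against CON, 0 of 10 members were called higher and 2 lower, beside 33.1% of all genes called (11.4% higher and 21.7% lower). Against MAL, 2 were called higher and 3 lower, beside 30.4% of all genes (10.2% higher and 20.2% lower). With only 10 members, these counts lie near the shares of all genes and are not read as a trait of the set. The median log2 fold change of the 10 was 0.06 against CON and 0.22 against MAL, where all genes had medians of -0.04 and -0.03. The comparisons share the MAL-BG libraries. On the CPM scale all 10 members overlapped between groups in each comparison, whereas 9.83% of genes lay wholly above CON and 11.1% wholly below it, 7.86% wholly above MAL and 8.95% wholly below it, and, with MAL set against CON, 0.412% above and 0.302% below. All 7 MAL-BG libraries lay above all 9 others in 6.17% of genes and below them in 6.36%, and in 0 of the 10 members.

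**Figure D1:**
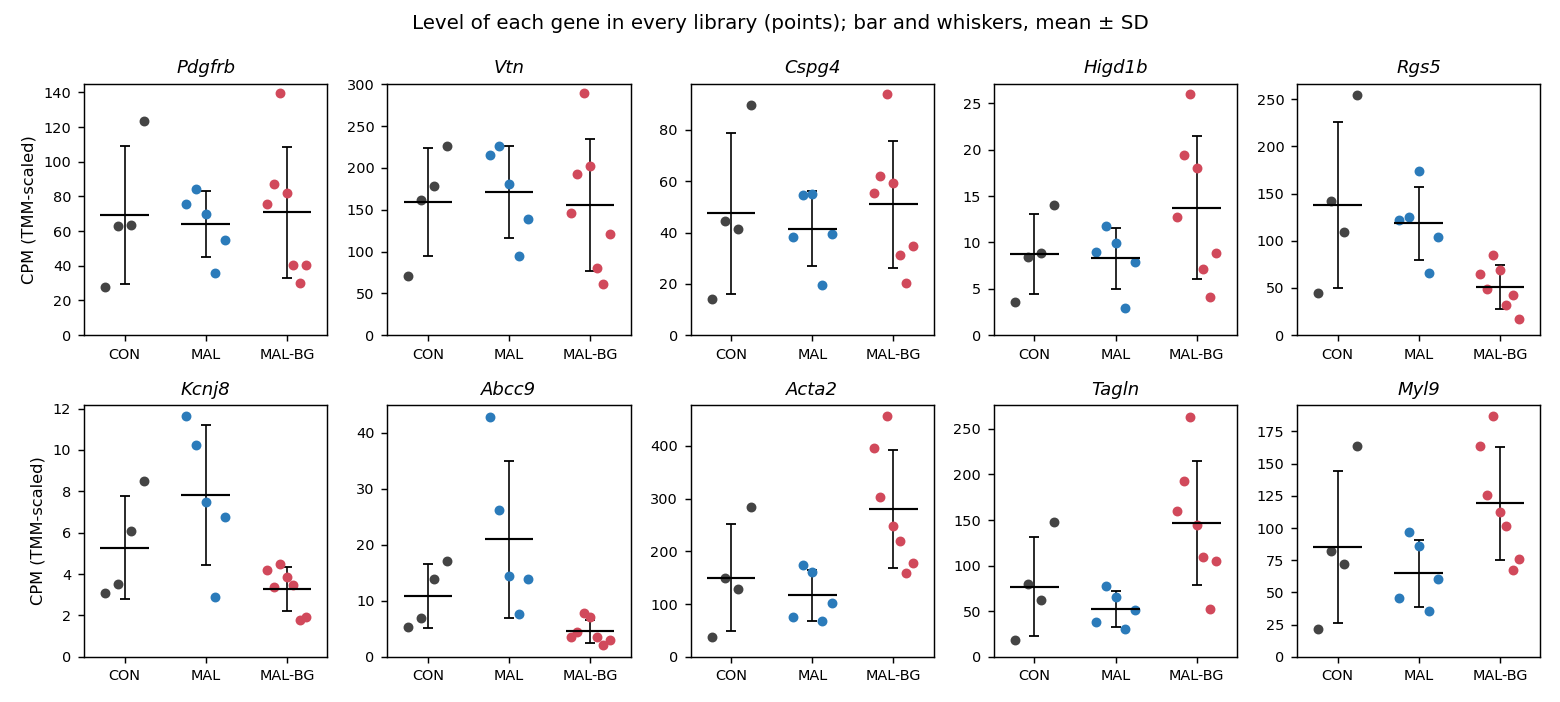
Level of each of the 10 genes (CPM, TMM-scaled, vertical axis from 0, 1 panel per gene) in every CON, MAL, and MAL-BG library. Points are libraries, and the bar and whiskers are the mean ± SD. Rgs5, Kcnj8, and Abcc9 have lower means in MAL-BG, and Acta2, Tagln, Myl9, and Higd1b have higher means. All 10 genes overlap between groups, and Pdgfrb, Vtn, and Cspg4 have a narrower range in MAL.

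Pdgfrb, the receptor for PDGF-B that recruits and keeps pericytes on vessels, was read at 27.7, 63.0, 63.4, and 123 CPM in the 4 CON libraries and 75.3, 84.4, 69.9, 35.9, and 54.9 in the 5 MAL libraries, and from 30.2 (median 75.8) to 139 over the 7 MAL-BG libraries. The groups overlapped, with a narrower range in MAL than in CON or MAL-BG. The log2 fold change was 0.03 ± 0.40 (SE, adjusted p = 0.961) against CON, with a 95% interval of -0.82 to 0.87. Against MAL it was 0.14 ± 0.37 (SE, adjusted p = 0.78), with an interval of -0.65 to 0.93. Changes of a size within these intervals are not excluded by these libraries.

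Cspg4, the NG2 proteoglycan of pericytes and oligodendrocyte precursors, stood at 14.2, 44.5, 41.5, and 89.7 CPM in the 4 CON libraries and 38.1, 54.8, 55.1, 19.6, and 39.5 in the 5 MAL libraries, and from 20.4 (median 55.3) to 94.1 over the 7 MAL-BG libraries. Its groups overlapped, with a narrower range in MAL. The log2 fold changes were 0.10 ± 0.43 (SE, adjusted p = 0.862) and 0.30 ± 0.40 (SE, adjusted p = 0.563) against CON and MAL. Markers of those precursors summed to 27.6 to 65.9 CPM over 12 genes in CON and MAL and 18.8 to 45.5 CPM in MAL-BG, and 5 of the 9 tested were called lower in MAL-BG against each group. Their part in the Cspg4 level was not tested.

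Vtn encodes vitronectin, an adhesive glycoprotein that brain pericytes secrete, and stood at 71.1, 162, 178, and 226 CPM in the 4 CON libraries and 215, 226, 181, 94.6, and 139 in the 5 MAL libraries, and from 60.7 (median 146) to 289 over the 7 MAL-BG libraries. It was among the highest of the 10 per kilobase in CON and MAL. The log2 fold changes were -0.03 ± 0.37 (SE, adjusted p = 0.95) against CON and -0.14 ± 0.35 (SE, adjusted p = 0.774) against MAL, with intervals of -0.82 to 0.76 and -0.87 to 0.60.

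Kcnj8 and Abcc9 encode Kir6.1 and SUR2, the pore and the regulatory subunit of the vascular KATP channel, and lie 16247 bases apart on the same strand of chromosome 6. Kcnj8 was at 3.07, 3.53, 6.07, and 8.48 CPM in the 4 CON libraries and 11.7, 10.2, 7.49, 2.90, and 6.77 in the 5 MAL libraries, and from 1.78 (median 3.47) to 4.48 over the 7 MAL-BG libraries. The MAL-BG values lay low, but 1 MAL and 2 CON libraries lay within their range. Its log2 fold change was -1.24 ± 0.34 (SE, adjusted p = 0.00765) against MAL, 2.36-fold lower, and -0.68 ± 0.36 (SE, adjusted p = 0.138) against CON, which did not pass.

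Abcc9 was at 5.37, 6.86, 13.9, and 17.2 CPM in the 4 CON libraries and 42.8, 26.2, 14.4, 7.57, and 13.9 in the 5 MAL libraries, and from 2.20 (median 3.58) to 7.86 over the 7 MAL-BG libraries. The lowest MAL library and 2 CON libraries lay within the MAL-BG range, and the MAL spread was wide, from 7.57 to 42.8 CPM. Abcc9 fell by 2.21 on the log2 scale against MAL (SE 0.42, adjusted p = 0.000623), 4.63-fold lower and the largest absolute change of the 10, and its log2 fold change against CON was -1.26 ± 0.44 (SE, adjusted p = 0.0275). The call against CON was lost without CON replicate 3 or 4 or MAL-BG replicate 1, 2, or 7, when the log2 fold change was -1.14, -0.96, -1.15, -1.19, and -1.12, and under mean log2 CPM scaling and under the length and GC offsets. Under those offsets 1 member and 32.9% of all genes were called against CON. Abcc9 is overlapped on the opposite strand by 5330439B14Rik. Per the methods the library kit was stranded, but the strand option of the counting is not given in the sources used here. Reads of Abcc9 therefore cannot be kept apart from those of 5330439B14Rik with certainty.

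Rgs5, a regulator of G protein signalling and a widely used pericyte marker, was at 44.3, 142, 109, and 255 CPM in the 4 CON libraries and 122, 126, 173, 66.3, and 104 in the 5 MAL libraries, and from 16.8 (median 49.0) to 85.1 over the 7 MAL-BG libraries. MAL-BG libraries lay low, and only the lowest CON and MAL libraries fell within their range. The log2 fold change was -1.42 ± 0.40 (SE, adjusted p = 0.00895) against CON, 2.68-fold lower, and -1.21 ± 0.38 (SE, adjusted p = 0.0175) against MAL, 2.31-fold lower. The call against CON was lost without CON replicate 4, the highest CON library (-0.96), and that against MAL without MAL replicate 3 (-1.04).

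Acta2 encodes the smooth muscle alpha-actin that is rich in arteriolar smooth muscle, and stood at 37.5, 150.3, 129, and 284 CPM in the 4 CON libraries and 76.0, 174, 162, 67.3, and 102 in the 5 MAL libraries, and from 158 (median 248) to 456 over the 7 MAL-BG libraries. Of the 7 MAL-BG libraries, 6 exceeded the MAL range, while the highest CON library lay inside the MAL-BG range. The log2 fold change was 1.27 ± 0.40 (SE, adjusted p = 0.0175) against MAL, 2.40-fold higher, and 0.90 ± 0.43 (SE, adjusted p = 0.0981) against CON, which did not pass. Without CON replicate 4 the change against CON was 1.39 and was called (adjusted p = 0.0218).

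Tagln encodes transgelin (SM22), an actin-binding protein of contractile smooth muscle, and was at 18.0, 80.3, 62.3, and 148 CPM in the 4 CON libraries and 38.3, 77.2, 66.2, 30.1, and 51.4 in the 5 MAL libraries, and from 52.2 (median 145) to 264 over the 7 MAL-BG libraries. Of the 7 MAL-BG libraries, 6 exceeded the MAL range. Its log2 fold change was 1.48 ± 0.43 (SE, adjusted p = 0.0112) against MAL, 2.79-fold higher, and 0.93 ± 0.46 (SE, adjusted p = 0.108) against CON. Without CON replicate 4 it was 1.44 (adjusted p = 0.0264). Tagln is overlapped on the opposite strand by Pcsk7 over 108 bases and by Gm48529 over 3627 bases. Gm48529 has no counts of its own here, and some reads of Tagln could be shared with either gene.

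Myl9, a regulatory light chain of smooth muscle myosin, was at 21.9, 82.2, 72.4, and 164 CPM in the 4 CON libraries and 46.1, 97.0, 85.9, 35.2, and 60.2 in the 5 MAL libraries, and from 67.0 (median 113) to 187 over the 7 MAL-BG libraries. Its log2 fold change of 0.88 ± 0.39 (SE, adjusted p = 0.0751) against MAL was positive but did not pass, and it was 0.48 ± 0.41 (SE, adjusted p = 0.351) against CON. It was called against MAL by DESeq2 (0.90, adjusted p = 0.0335), and in edgeR without CON replicate 1 or 4 or MAL-BG replicate 6 or 7 (0.86, 0.86, 0.98, and 1.03) or with the compared groups alone in the fit (0.86, adjusted p = 0.0265). Reads of the contractile genes can be shared with close paralogs, since actins and myosin light chains are near-identical over stretches.

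Higd1b, a hypoxia-inducible domain protein enriched in pericytes, was at 3.61, 8.44, 8.91, and 14.1 CPM in the 4 CON libraries and 8.94, 11.8, 9.89, 2.90, and 7.88 in the 5 MAL libraries, and from 4.16 (median 12.7) to 26.0 over the 7 MAL-BG libraries. The groups overlapped and its log2 fold changes, 0.65 ± 0.46 (SE, adjusted p = 0.266) and 0.73 ± 0.43 (SE, adjusted p = 0.178) against CON and MAL, did not pass.

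Diet alone gave no call. For MAL versus CON, edgeR called 0 of 14565 genes and DESeq2 also 0, and at an unadjusted p under 0.05 edgeR had 212 genes (1.46%) and 0 members, and DESeq2 241 genes and 1 member. The member with the largest difference was Abcc9, at 0.95 ± 0.48 (SE, adjusted p = 0.999), with an interval of -0.07 to 1.96.

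**Figure D2:**
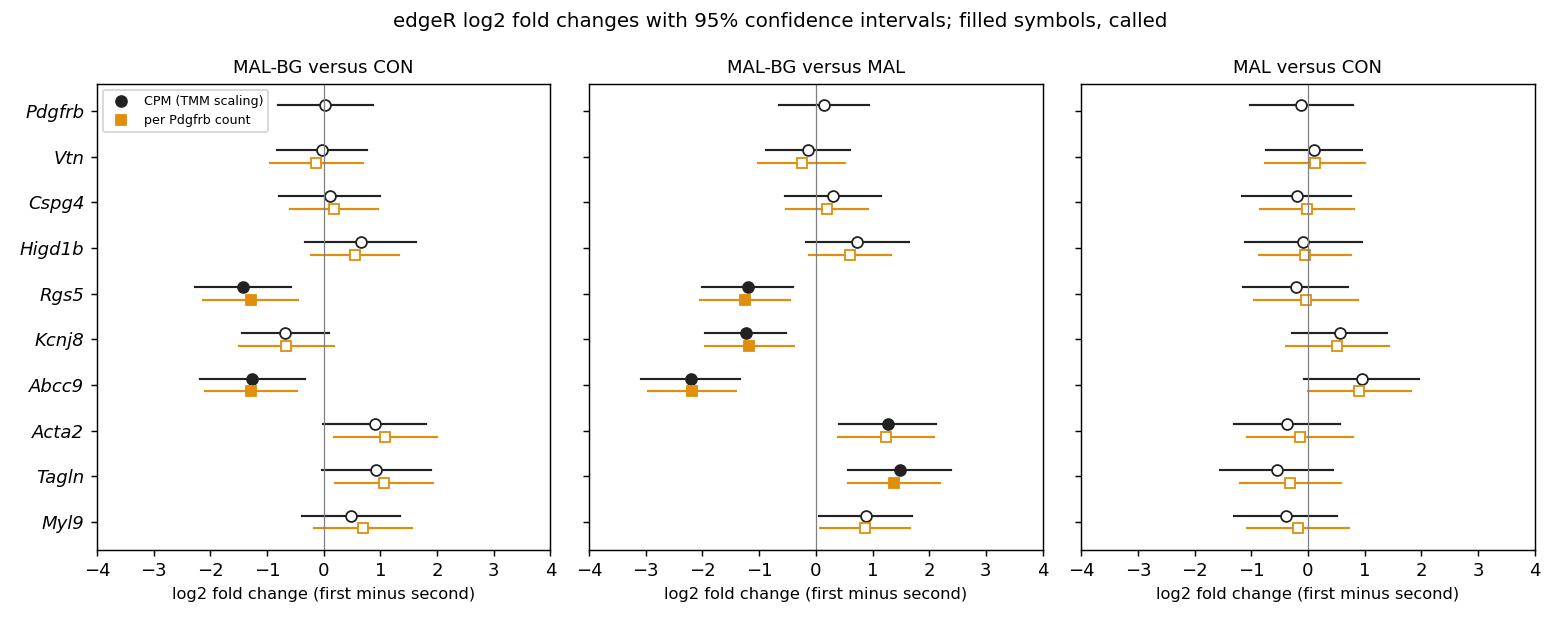
Log2 fold change of each gene (horizontal axis, first group minus second) with its 95% confidence interval in the 3 comparisons, on the TMM scale (black) and per Pdgfrb count (orange). Filled symbols passed the call rule. In both MAL-BG comparisons Rgs5, Kcnj8, and Abcc9 lie left of 0 and Acta2 and Tagln right of it, and in MAL versus CON no symbol is filled.

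Libraries of 1 group differed widely in mural RNA as a whole. CON replicate 1 was the lowest and CON replicate 4 the highest of its group for all 10 genes, and MAL replicate 4 was the lowest of its group for all 10. In MAL-BG, replicate 3 was the highest for all 10 genes and replicate 6 the lowest for 9. The summed level of the 10 genes ran from 247 to 1329.6 CPM for CON, 362 to 887 for MAL, and 439.7 to 1552 for MAL-BG. Endothelial markers (25 genes) summed to 1507 to 4979, 1344 to 3697, and 2931 to 7793 CPM, with the same libraries lowest and highest in CON and MAL-BG, and their part in the mural levels was not tested. Within groups, the 45 pairs of members had a median Pearson r of 0.83 over 16 libraries, from 0.53 for Abcc9 with Acta2 to 0.996 for Acta2 with Myl9. The points share libraries and their depth, and this is a description. The genes outside the set most like the mean of the members, by the same measure, were Mustn1 (r = 0.98), Cd248 (0.98), Rgs4 (0.97), Cald1 (0.97), and Ano1 (0.97).

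To compare genes within the mural RNA, each library was also scaled to its Pdgfrb count, a choice made after the data were seen, and the calls came from the same edgeR test over all genes. Per Pdgfrb count, Rgs5 stood at 1.60, 2.25, 1.73, and 2.06 in the 4 CON libraries and 1.62, 1.49, 2.48, 1.85, and 1.90 in the 5 MAL libraries, and from 0.416 (median 0.785) to 1.41 over the 7 MAL-BG libraries. All 7 MAL-BG libraries were below all 9 others. Its log2 fold change was -1.29 ± 0.41 (SE, adjusted p = 0.0332) against CON and -1.25 ± 0.39 (SE, adjusted p = 0.0318) against MAL, and these calls held in 7 and 8 of 16 fits that each left out 1 library, where the change ran from -1.49 to -1.18 and from -1.46 to -1.13.

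Abcc9 per Pdgfrb count stood at 0.194, 0.109, 0.220, and 0.139 in the 4 CON libraries and 0.568, 0.310, 0.205, 0.211, and 0.252 in the 5 MAL libraries, and from 0.0459 (median 0.0727) to 0.0888 over the 7 MAL-BG libraries. Its MAL-BG libraries were also below all 9 others. The log2 fold change was -2.19 ± 0.38 (SE, adjusted p = 0.000172) against MAL, a call kept in 16 of 16 leave-outs, and -1.28 ± 0.40 (SE, adjusted p = 0.029) against CON, kept in 11 and lost without CON replicate 1 or 3 or MAL-BG replicate 1, 2, or 3. Kcnj8 was called lower against MAL at -1.17 ± 0.38 (SE, adjusted p = 0.0429), a call kept in 5 of 16, with changes of -1.34 to -1.05.

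Acta2 per Pdgfrb count stood at 1.35, 2.39, 2.03, and 2.30 in the 4 CON libraries and 1.01, 2.06, 2.31, 1.88, and 1.87 in the 5 MAL libraries, and from 3.02 (median 4.41) to 5.45 over the 7 MAL-BG libraries, so that every MAL-BG library lay above every other. The edgeR test nevertheless passed neither comparison, with log2 fold changes of 1.09 ± 0.45 (SE, adjusted p = 0.136) and 1.24 ± 0.42 (SE, adjusted p = 0.0516) against CON and MAL. Of 16 leave-outs, 3 gave a call for Acta2 against MAL, those of CON replicates 1 and 4 and MAL-BG replicate 3. Tagln ran from 1.73 (median 2.11) to 2.71 in MAL-BG against 0.508 to 1.28 in the other 9, and was called against MAL, at 1.37 ± 0.40 (SE, adjusted p = 0.0193), in all leave-outs but those of MAL replicates 1 and 5 (14 of 16), but not against CON, at 1.06 ± 0.42 (SE, adjusted p = 0.12). Myl9 also separated, from 1.34 (median 1.88) to 2.52 in MAL-BG against 0.611 to 1.33, and was not called, at 0.87 ± 0.39 (SE, adjusted p = 0.216) against MAL.

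Per Pdgfrb count, 0 of 9 members were called higher and 2 lower against CON, beside 12.2% of all genes (0.412% higher and 11.8% lower), and 1 higher and 3 lower against MAL, beside 10.8% (0.652% and 10.1%). For MAL versus CON, 0 were called, and 0 separated, beside 0.0137% of genes wholly higher and 0.0343% wholly lower. Acta2, Tagln, and Myl9 had all 7 MAL-BG libraries above the other 9, beside 0.336% of all genes, and Rgs5 and Abcc9 had all 7 below, beside 5.43%. The shares of all genes that separated were 0.446% higher and 7.94% lower against CON, and 0.632% higher and 6.39% lower against MAL. On the CPM scale the shares with all 7 MAL-BG libraries above or below the other 9 were 6.17% and 6.36%. The members followed Pdgfrb within groups (r of 0.81 to 0.97), and whether other genes do was not tested. The shares of all genes per Pdgfrb count are therefore not a like-for-like background. Cspg4 per Pdgfrb count stayed between 0.506 and 0.860 in all 16 libraries. When Vtn replaced Pdgfrb as the scale, 0 of 9 members were called against CON, beside 10.7% of all genes, and 2 higher and 1 lower against MAL, beside 8.43%, and Rgs5 (-1.14 and -0.94), Abcc9 against CON (-1.15), and Kcnj8 against MAL (-0.87) were no longer called. With Cspg4 as the scale, Acta2 was not called against MAL (1.05).

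**Figure D3:**
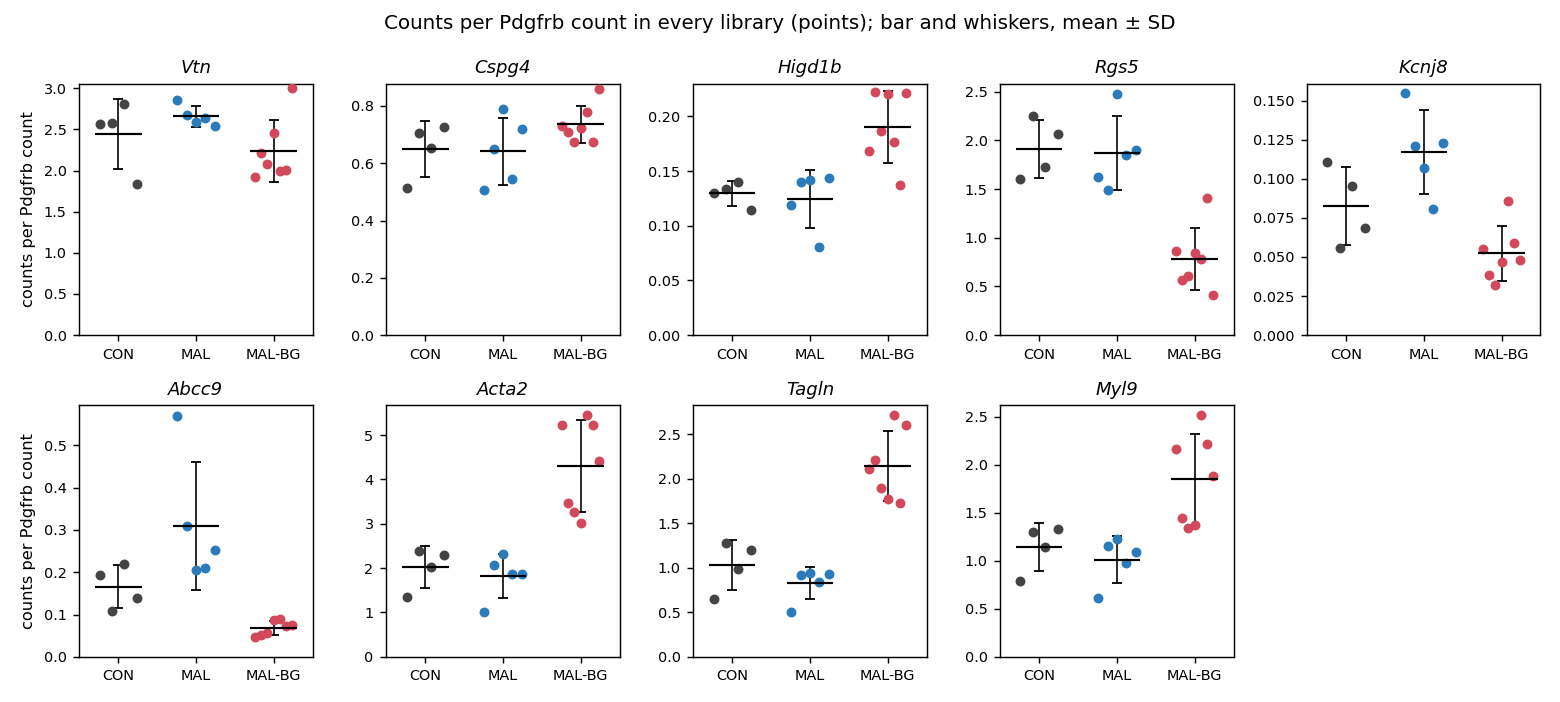
Counts of each of the other 9 genes per Pdgfrb count (vertical axis from 0) in every library, with mean ± SD as bar and whiskers. Acta2, Tagln, and Myl9 in MAL-BG lie above every CON and MAL library, and Rgs5 and Abcc9 below.

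Ratios between members differed from pair to pair. Counts of Acta2 per Myl9 count ran from 1.71 to 1.83 for CON, 1.65 to 1.91 for MAL, and 2.16 to 2.44 for MAL-BG. Among the other contractile pairs the groups overlapped, with Tagln per Acta2 count at 0.482 to 0.535, 0.409 to 0.504, and 0.330 to 0.636 and Tagln per Myl9 count at 0.825 to 0.977, 0.770 to 0.854, and 0.779 to 1.53 in the same order. Acta2 per Rgs5 count ran from 0.846 to 1.18, 0.623 to 1.38, and 3.60 to 10.6. These pairs were picked after their values were seen and were not tested.

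Levels per kilobase of exon put the genes in an order. In CON it ran from Vtn (78.5 ± 31.9 CPM per kb, SD, n = 4), Myl9 (73.2 ± 50.6), and Acta2 (68.4 ± 46.4) through Tagln, Rgs5 (30.3 ± 19.3), Pdgfrb (12.7 ± 7.25), Higd1b, Cspg4, and Kcnj8 to Abcc9 (1.30 ± 0.67), and no neighbours differed by more than the sum of their SDs. In MAL-BG, Acta2 (127 ± 50.8, n = 7) and Myl9 (103 ± 37.8) led, ahead of Vtn (76.8 ± 38.9) and Tagln (73.8 ± 34.4), and Rgs5 (11.3 ± 5.16) lay below Higd1b (16.2 ± 9.15) and Pdgfrb (12.9 ± 6.93). The gaps after Tagln, Cspg4, and Kcnj8 exceeded the sum of the SDs there.

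Among 28 other pericyte genes, 0 were called higher and 2 lower against CON, and 3 higher and 3 lower against MAL, with medians of -0.07 and 0.22. Slc6a20a, a proline transporter, was at 19.9 ± 5.96 CPM for CON, 21.0 ± 8.62 for MAL, and 4.17 ± 1.98 for MAL-BG (SD, n = 4, 5, and 7), and fell against both, by 2.25 and 2.33 on the log2 scale. Whether the RNA of Slc6a20a came from mural cells was not tested. Kcne4, a potassium channel subunit, fell too, with log2 fold changes of -1.80 (adjusted p = 0.00272) and -1.09 (adjusted p = 0.0371). Foxs1 and Ebf1, transcription factors of mural cells, rose against MAL, at 1.93 (adjusted p = 0.0128) and 1.40 (adjusted p = 0.0164), but not against CON, at 1.53 (adjusted p = 0.052) and 1.05 (adjusted p = 0.0765). Notch3, the receptor that keeps smooth muscle mature, did not pass, at -0.55 (adjusted p = 0.282) and -0.32 (adjusted p = 0.51).

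Among 23 of 24 other contractile genes tested, 0 were called higher and 1 lower against CON, and 6 higher and 1 lower against MAL, with medians of 0.23 and 0.47. The largest rise against MAL among the named ones was of Tpm2, a tropomyosin, at 1.39 (adjusted p = 0.00509). Pln, the phospholamban regulator of calcium stores, had 1.10 (adjusted p = 0.032) and Mustn1 1.14 (adjusted p = 0.0216). Filip1l fell against both groups, at -1.504 (adjusted p = 4.7e-05) and -1.44 (adjusted p = 4.46e-05). It stood at 96.2 ± 10.5 CPM for CON, 92.2 ± 12.1 for MAL, and 33.9 ± 12.4 for MAL-BG (SD). Its spread in CON was narrow beside that of Acta2 (150 ± 102), and whether its RNA came from mural cells was not tested. Myh11, the smooth muscle myosin heavy chain, stood at 169 ± 122 CPM for CON, 113 ± 41.4 for MAL, and 128 ± 46.8 for MAL-BG (SD, n = 4, 5, and 7), with log2 fold changes of -0.40 (adjusted p = 0.422) and 0.17 (adjusted p = 0.732), and Des, the intermediate filament desmin, had 0.28 (adjusted p = 0.602) and 0.76 (adjusted p = 0.125).

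**Figure D4:**
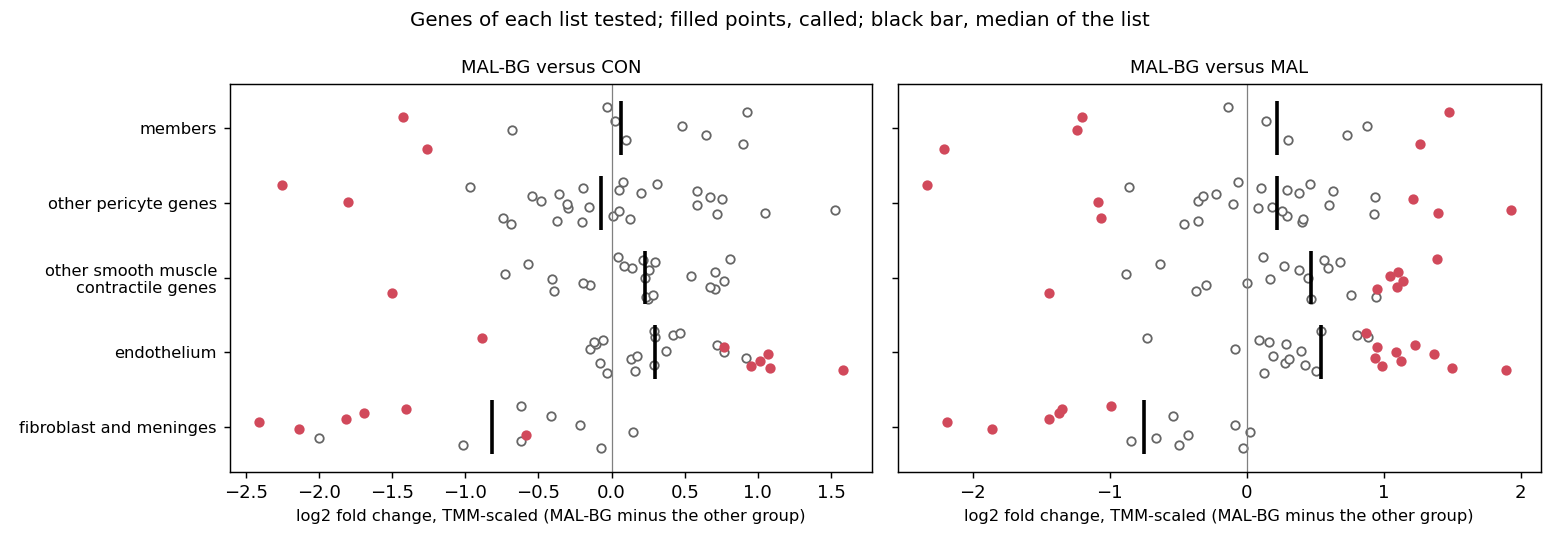
Log2 fold change of each tested gene (points, horizontal axis, MAL-BG minus the other group) in the 10 members and 4 other lists, with filled points called and a black bar at the median of each list. Medians sit at 0.06 and 0.22 for the members, 0.30 and 0.54 for endothelium, and -0.82 and -0.75 for fibroblast and meningeal genes.

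In the PDGF pathway, 1 of 17 genes was called higher and 4 lower against CON, and 2 higher and 4 lower against MAL, with medians of 0.06 and 0.0036. Pdgfb, the ligand of Pdgfrb, was at 489.7 ± 102 CPM for CON, 450.0 ± 113 for MAL, and 641 ± 150.4 for MAL-BG (SD, n = 4, 5, and 7), with log2 fold changes of 0.39 (adjusted p = 0.119) and 0.51 (adjusted p = 0.033), the latter under the fold threshold. Pdgfra, the receptor of fibroblasts and oligodendrocyte precursors, fell against both, at -1.40 (adjusted p = 0.00446) and -1.35 (adjusted p = 0.00423), as did the ligands Pdgfc, at -1.60 (adjusted p = 0.00268) and -1.36 (adjusted p = 0.0056), and Pdgfd, at -1.31 (adjusted p = 0.0399) and -1.31 (adjusted p = 0.0311), and the phospholipase Plcg1, at -1.34 (adjusted p = 0.00109) and -1.23 (adjusted p = 0.00142).

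Of 9 vitronectin receptors and partners, 3 were called higher and 2 lower against CON, and 3 higher and 1 lower against MAL, with medians of 0.24 and 0.26. Integrin subunits Itgb3 and Itgb5 rose, at 1.27 (adjusted p = 7.02e-05) and 0.91 (adjusted p = 0.00106) against CON, while Itgb8 fell, at -4.74 (adjusted p = 5.75e-06). Plau, the urokinase protease, rose at 1.38 (adjusted p = 0.000304). Itgav, their alpha partner, had an adjusted p under the threshold but a change below it, at 0.57 (adjusted p = 0.000693). Microglia and other myeloid cells also make several of these genes, so their levels need not come from mural cells.

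Among 13 of 18 paralogs tested, 1 was called higher and 5 lower against CON, and 0 higher and 4 lower against MAL, with medians of -0.23 and -0.07. Kcnj11, the Kir6.2 pore of the other KATP channel, fell at -3.23 (adjusted p = 0.000768) and -2.53 (adjusted p = 0.00388) from 68 summed counts for CON, 52 for MAL, and 15 for MAL-BG, while Abcc8, its regulatory subunit, had too few counts to be tested. Actb rose against CON at 0.63 (adjusted p = 0.00811) and Tagln2, Myl12a, and Higd1a did not pass, at -0.23 (adjusted p = 0.154), -0.36 (adjusted p = 0.13), and -0.19 (adjusted p = 0.393). Myl12b had 0.28 (adjusted p = 0.0448), a change below the fold threshold. Rgs8 and Tagln3 fell, at -3.85 (adjusted p = 2.65e-05) and -1.72 (adjusted p = 0.0034).

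Markers of neighbouring cells moved in several directions beside these genes. Of 25 endothelial genes, 6 were called higher and 1 lower against CON, and 10 higher and 0 lower against MAL. Of 14 fibroblast and meningeal genes, 0 were called higher and 6 lower in each comparison. Choroid plexus genes (15) were called lower for 15 against CON and 14 against MAL, with summed levels of 10992 to 42369 CPM for CON, 5131 to 33329 for MAL, and 1497 to 13413 for MAL-BG. Neurons had 11 of 12, astrocytes 6 and 7 of 12, and ependyma 9 and 8 of 10 genes called lower against CON and MAL. Of 10 oligodendrocyte genes 3 were called higher in each comparison, of 15 microglial genes 10, and of 11 neutrophil genes tested 10, with a sum in MAL-BG replicate 5 of 13571 CPM. The part of these cell mixtures in the mural values was not tested. The study's code carries a batch term, but no source used here names the batch of any library, so its part was not tested.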

How the data were processed

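The authors aligned reads to GRCm38 with STAR, used HTSeq for counting, and deposited the raw counts. The library kit was stranded, but the counting mode, strand option, and annotation are not given in the sources used here. Groups came from the column names, whose running numbers match no sample title. A replicate number is therefore only a name.

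Counts were analysed in R 4.3.3 with edgeR 4.0.16 (quasi-likelihood test). A gene needed over 10 counts in 4 or more libraries (14565 did). The 16 libraries were scaled by TMM and fitted together, with Benjamini-Hochberg adjustment of p. Alternatives included DESeq2 1.42.0, other scalings and filters, thinning, length and GC offsets (known for 96.3% of genes), and each library left out. Scaling to Pdgfrb, Vtn, or Cspg4 was chosen after the data were seen. The test steps were tested on simulated data. For the Pdgfrb scaling, every simulated gene was made to follow the Pdgfrb level of its library, so the simulation cannot show whether the real genes do. Gene models are GENCODE M21, and promoter sequences are from RefSeq on GRCm38.p6. The members, lists, and named genes were chosen with earlier results of these data known. All 10 members are described, and from each other list up to 4 called genes with the largest change against CON and direct partners of the members. Precision is set by the spread between libraries, and p values set the group differences against that spread alone.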

Additional observations from a re-analysis of the deposited data

Results flagged for a closer look

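Among 57 groups of values checked for a library far from the others, 2 stood out, both in MAL replicate 1 and both per Pdgfrb count. About 1 in 20 groups would be picked by chance. Abcc9 per Pdgfrb count was 0.568 there, the highest of the 5 MAL libraries, with a gap of 0.712 of the whole range to the next. Tagln per Pdgfrb count was 0.508 in the same library, the lowest of the 5, with a gap of 0.754 of the range.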

How the results depend on the processing

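No paired analysis was possible because the columns carry running numbers that match no sample title. When each library was left out, the members called were 1 to 2 against CON, 4 to 6 against MAL, and 0 to 0 for MAL versus CON. With all libraries, 33.1% of all genes were called against CON and 30.4% against MAL. The leave-outs that called 1 member against CON called 4284 to 4698 genes in all, beside 4820 with all libraries. The counts of members hide a change of genes. Without CON replicate 4, Rgs5 (-0.96) and Abcc9 (-0.96) were no longer called lower against CON. Acta2 (1.39) and Tagln (1.44) were called higher instead, so the calls against CON depended on that library. Length and GC offsets called 1 member against CON (32.9% of all genes), and scaling to Vtn, chosen after the data were seen, called 0 against CON (10.7%) and 3 against MAL (8.43%). Mean log2 CPM scaling, which moved the median of all genes to 0.21 and 0.19, called Acta2 (1.17) and Tagln (1.19) against CON and Myl9 (1.10) against MAL, and lost Abcc9 (-1.01) against CON. DESeq2 called Acta2 against CON (0.92), and a fit of the compared groups alone called Myl9 against MAL (0.86). Directions turned only in values that were not called. Library totals gave Pdgfrb -0.12 and Cspg4 -0.054 against CON, mean log2 CPM scaling gave Vtn 0.22 against CON and 0.077 against MAL, the offsets gave Higd1b 0.023 for MAL versus CON, and scaling to Cspg4 gave Pdgfrb -0.20, -0.23, and 0.031 in the 3 comparisons. Leaving out a library moved Pdgfrb from -0.26 to 0.44 against CON, -0.12 to 0.30 against MAL, and -0.39 to 0.32 for MAL versus CON. Vtn ran from -0.30 to 0.16, -0.37 to 0.00407, and -0.15 to 0.32 in the same order, and Cspg4 from -0.23 to 0.59 against CON. For MAL versus CON, Cspg4 ran from -0.51 to 0.31, Rgs5 from -0.52 to 0.26, Acta2 from -0.70 to 0.14, Myl9 from -0.72 to 0.14, and Higd1b from -0.35 to 0.25. The causes were not tested. After the edgeR result per Pdgfrb count had been seen, the same ratios were also put to two-sided exact permutation tests over libraries, unadjusted. Of 27 tests, 16 had a p under 0.05, 7 of 9 against CON, 8 of 9 against MAL, and 1 of 9 for MAL versus CON. Rgs5, Abcc9, Acta2, Tagln, and Myl9 already separated on these ratios, so small p values for them add little. The tests were run on the members alone, with no share of all genes to set beside the counts. They carry no correction over all genes and decided no call here. Kcnj8 had 26 to 137 counts per library.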
